A study of Homo sapiens with 6 samples.

Results

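In order to examine the NF-kB system of HK-2 cells, the messages of 10 of its genes were followed through 6 RNA-seq libraries. The genes were 4 subunits of the transcription factor (NFKB1, NFKB2, RELA and RELB), 3 proteins of the IkB family (NFKBIA, NFKBIE and BCL3), the ubiquitin-editing inhibitor TNFAIP3 with its partner TNIP1, and the ubiquitin ligase BIRC3. They were 10 of the 26899 genes listed in the counts table and all 10 were among the 15299 genes with enough reads to be tested. The members were chosen by symbol with earlier results of these libraries in view, from their levels in the libraries, from how they track each other and from the difference between the labels. Their levels and correlations are therefore given as a description, without a test. The edgeR p-values given below for the members describe the difference between the labels and are no independent test of it.

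HK-2 is an immortalised human cell line, derived from the proximal tubule of the kidney and transformed with human papillomavirus 16. Of the 6 libraries, 3 were labelled ANXA2 knockdown and 3 were labelled control, with replicates 1 to 3 in each group. Plasmids were delivered with Lipofectamine, a lipid reagent, and the groups carried the short names shANXA2 and shCtrl, but titles and treatment fields gave the control as wild type, so the labels do not settle whether it held a control hairpin. Polyadenylated RNA was sequenced as directional libraries, and the sources used here do not state whether replicates came from separate cultures. Depth lay between 24231267 and 34561675 counted reads, and the shallowest libraries were control 1 and knockdown 3 (28866835 reads). ANXA2, the gene aimed at by the hairpin, was at 1658, 1461 and 1675 CPM (counts scaled to library size with TMM factors) in control 1, 2 and 3 and at 1538, 1561 and 1519 CPM in knockdown 1, 2 and 3. The groups overlapped, the log2 difference was −0.05, and the adjusted p of the edgeR quasi-likelihood test was 0.848. Since the message of the target did not separate the groups, the libraries are called by their labels throughout and no direction is credited to a loss of ANXA2.

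NF-kB dimers are held in the cytoplasm by IkB proteins until receptors of the TNF, interleukin-1 or Toll-like families activate the IkB kinase complex, which marks the inhibitor for destruction. The freed dimers enter the nucleus, bind short kappaB sequences and switch on cytokine and survival genes, together with genes for their own inhibitors and precursors. This feedback makes the messages of NFKBIA and TNFAIP3 widely used readouts of NF-kB activity, and tubule cells are a known source of NF-kB-driven cytokines in injured kidney.

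NFKB1, NFKB2, NFKBIA, TNFAIP3, BIRC3 and TNIP1 rose and fell together over the libraries, by 2.01-fold to 10.2-fold between the lowest and the highest CPM, but along an order that cut across the labels. They were high in control 3, knockdown 1 and knockdown 2 and low in control 1 and knockdown 3, and in control 2 all but BIRC3 lay below their own mean. RELA stayed within 1.22-fold. RELB spanned 1.98-fold with its lowest level in control 2, and NFKBIE and BCL3 each had an order of their own. The 6 genes were set apart from the other 4 after their values were seen.

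Promoters of the members were searched for kappaB letters in the reference genome. RefSeq promoter windows on GRCh38.p14, running from 250 bases before to 50 bases from the start site on, were at hand for 8 of the 10 members, and RELB and NFKBIE had none. Both strands were searched for GGGNNTTTCC, a kappaB form of 10 bases in which N is any base. The form was chosen among 5 after all 5 had been searched, and it is the one form whose matched members are the 6 co-varying genes. It was found in 671 of 35116 windows (1.91%) and in 635 of 27305 genes (2.33%), and in 6 of the 8 members with a window. The broader kappaB consensus was found in 11.3% of windows (13.3% of genes) and a shorter version of it in 18.3% of windows (21.3% of genes). Each was found in 7 of the 8 members, with BCL3 as the addition. GGAANNTCC was found in 4.56% of windows (5.57% of genes) and in 5 members, the same 6 without BIRC3. GGGNNNNCCC was found in 17.8% of windows (20.3% of genes) and in 4 members, NFKB1, NFKB2, BCL3 and TNIP1. No form matched RELA, whereas the split of the 6 genes from BCL3 belongs to the form shown. A match is a run of letters and not a site shown to be bound in these cells. The matches are shown to let the letters of the 6 genes be compared. Each is written 5′ to 3′ on the strand that carries the motif, with 10 bases on either side and the motif in capitals.
NFKB1 (chr4:102501300-102501329, + strand): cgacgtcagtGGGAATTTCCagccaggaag
NFKB2, second start (chr10:102394490-102394519, + strand): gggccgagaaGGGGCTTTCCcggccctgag
NFKB2, last start (chr10:102395674-102395703, + strand): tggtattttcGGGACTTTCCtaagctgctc
NFKBIA (chr14:35404811-35404840, + strand): gtcaggctcgGGGAATTTCCaagccagtca
TNFAIP3, farther match (chr6:137867182-137867211, − strand): ggatttccacGGGACTTTCCaaagtcacgt
TNFAIP3, nearer match (chr6:137867194-137867223, − strand): ttgtaggcccGGGGATTTCCacgggacttt
BIRC3 (chr11:102317275-102317304, − strand): aaacccactcGGGGATTTCCatgacccaaa
TNIP1 (chr5:151081057-151081086, − strand): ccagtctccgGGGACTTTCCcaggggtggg

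NFKB1 and TNIP1 had 2 annotated starts each, and in both genes 1 of the 2 windows held no match. The match lay 49 to 40 bases upstream of the first start listed for NFKB1 and 42 to 33 bases upstream of the first listed for TNIP1, on the strand of the gene in both. NFKB2 had 3 annotated starts, and its matches lay 78 to 69 bases before the second and 21 to 12 bases before the last. In NFKBIA, TNFAIP3 and BIRC3 the motif was on the other strand, at 81 to 72 bases upstream in NFKBIA and at 199 to 190 in BIRC3. TNFAIP3 alone among these windows held 2 matches, at 67 to 58 and at 55 to 46 bases upstream, so they do not overlap each other. The motif itself was letter for letter the same in NFKB1 and NFKBIA, the same at the last start of NFKB2, in the farther match of TNFAIP3 and in TNIP1, and the same in the nearer match of TNFAIP3 and BIRC3.

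**Figure D1:**
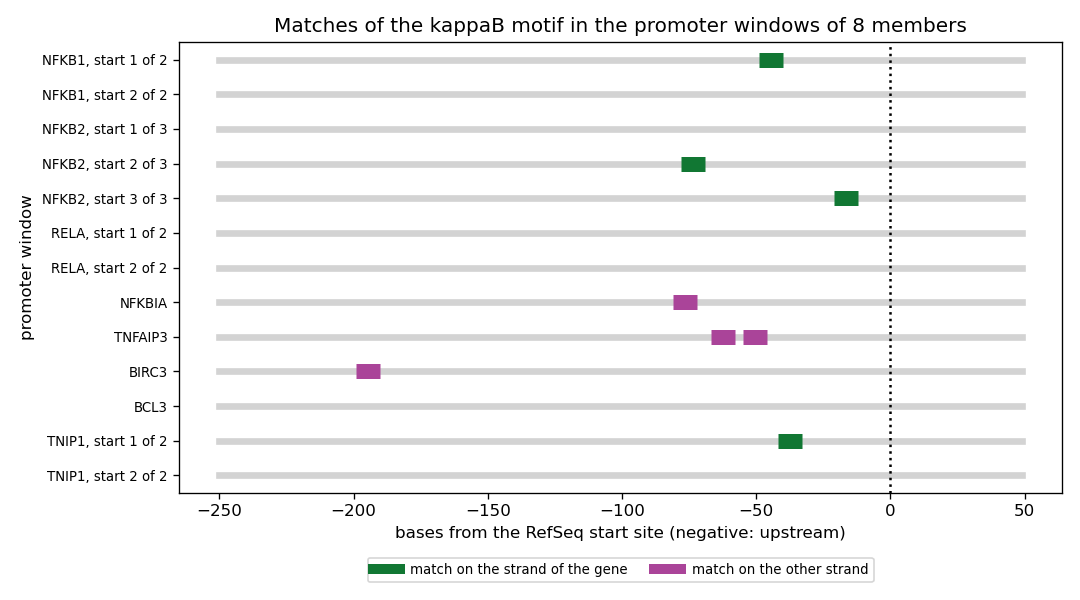
Position of each GGGNNTTTCC match in the 300-base RefSeq promoter windows of 8 members, with the horizontal axis in bases from the start site, grey bars for windows and green or purple blocks for matches on the strand of the gene or on the other strand. All matches but that of BIRC3 lie within 81 bases upstream of a start, and both windows of RELA and the window of BCL3 are empty.

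Whole windows are given for 3 members as picked examples, 2 feedback inhibitors with a match and a subunit without one. The matches did not divide inhibitors from subunits, since the subunits NFKB1 and NFKB2 had one and the IkB protein BCL3 had none of this form. Of the 2 windows of RELA, both without a match, the second is printed. The windows are written 5′ to 3′ on the strand of the gene. Capitals mark the match, which reads as the reverse complement of the motif in NFKBIA and TNFAIP3, and RELA has no capitals.
NFKBIA (chr14:35404700-35404999, − strand): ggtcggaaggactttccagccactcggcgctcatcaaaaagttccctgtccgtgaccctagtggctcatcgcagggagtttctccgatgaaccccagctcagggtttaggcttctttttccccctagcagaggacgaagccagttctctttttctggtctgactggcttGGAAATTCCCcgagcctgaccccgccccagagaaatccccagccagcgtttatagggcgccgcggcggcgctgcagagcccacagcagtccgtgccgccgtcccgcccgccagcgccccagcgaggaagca
TNFAIP3 (chr6:137867009-137867308, + strand): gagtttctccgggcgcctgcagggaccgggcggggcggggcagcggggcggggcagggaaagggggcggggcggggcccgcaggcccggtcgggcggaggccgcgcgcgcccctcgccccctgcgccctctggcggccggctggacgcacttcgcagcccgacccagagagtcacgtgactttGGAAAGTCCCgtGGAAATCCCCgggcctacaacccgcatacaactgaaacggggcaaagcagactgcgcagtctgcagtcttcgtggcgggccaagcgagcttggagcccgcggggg
RELA (chr11:65662867-65663166, − strand): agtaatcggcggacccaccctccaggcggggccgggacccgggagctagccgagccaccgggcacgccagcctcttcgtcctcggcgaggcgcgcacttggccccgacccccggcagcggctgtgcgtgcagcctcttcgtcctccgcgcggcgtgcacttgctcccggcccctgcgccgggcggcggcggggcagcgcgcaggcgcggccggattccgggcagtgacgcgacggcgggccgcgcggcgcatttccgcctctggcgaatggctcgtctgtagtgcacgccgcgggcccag

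Levels per length were compared as FPKM, fragments scaled for gene length and library size, which is the scale for setting one gene against another. Positions of the genes below are those of the reference annotation on GRCh38. TNIP1 had the highest mean FPKM over the 6 libraries at 129, followed by NFKBIA at 115. TNFAIP3, NFKB2 and RELA had means of 32.8, 32.4 and 31.4 FPKM. NFKB1 was next at 16.8 FPKM, then BCL3 at 12.8, NFKBIE at 11.4 and RELB at 10.6, and BIRC3 was the lowest at 4.95 FPKM. Compared within libraries, NFKBIA was above TNFAIP3, RELA above NFKB1 and RELB above BIRC3 in 6 of 6. The other neighbours changed places in at least 1 library, and TNFAIP3 with NFKB2, NFKB2 with RELA and BCL3 with NFKBIE each did so in 3 of 6.

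**Figure D2:**
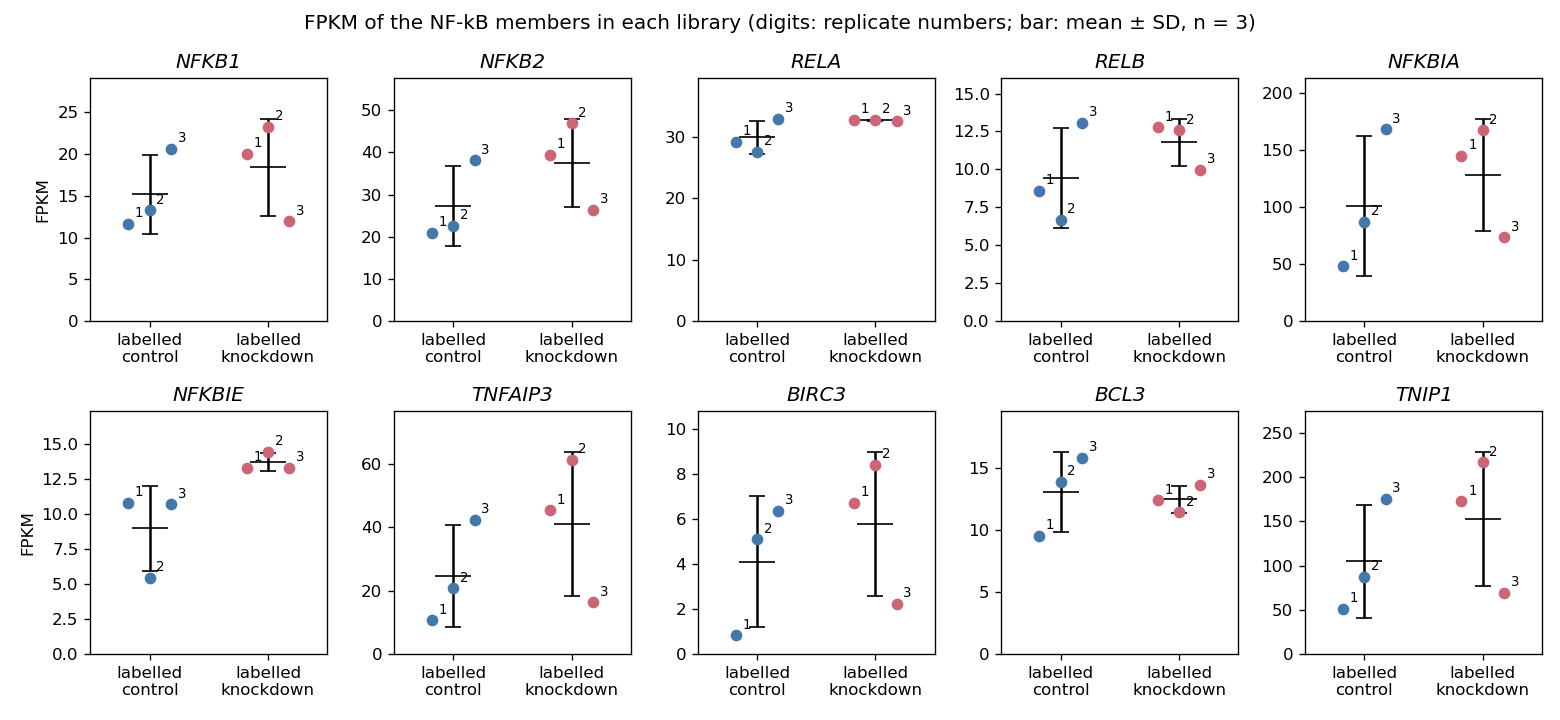
FPKM of each member (vertical axes, each from 0) in the 3 libraries labelled control and the 3 labelled knockdown, with points numbered by replicate and bars for mean ± SD (n = 3). In the panels of TNFAIP3, TNIP1, NFKB1 and NFKBIA control 3 sits with knockdown 1 and 2 while knockdown 3 sits with control 1 and 2, and in the panel of RELA all points lie between 27.7 and 33.0.

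NFKB1 (chr4:102501330-102617302, + strand) encodes p105, the precursor of the p50 subunit and itself an IkB-like inhibitor. Its FPKM was 11.6, 13.3 and 20.6 in control 1, 2 and 3 and 20, 23.2 and 11.9 in knockdown 1, 2 and 3. Control 3 was thus at the level of knockdown 1, and knockdown 3 at that of control 1, so the groups overlapped. NFKB2 (chr10:102394110-102402524, + strand) encodes p100, which is processed to p52 in the non-canonical pathway. It was at 21.0, 22.6 and 38.1 FPKM in control 1, 2 and 3 and at 39.4, 46.9 and 26.3 FPKM in knockdown 1, 2 and 3. The order was that of NFKB1 except that knockdown 3 lay above control 2 and knockdown 1 above control 3. NFKB2 was 1.71 to 2.21 times NFKB1 in FPKM in every library, a far smaller spread than that of either gene.

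RELA (chr11:65653599-65663090, − strand) encodes p65, the subunit with the transactivation domain in the canonical p50-p65 dimer. Its FPKM was 29.3, 27.7 and 33.0 in control 1, 2 and 3 and 32.8, 32.8 and 32.6 in knockdown 1, 2 and 3. The highest CPM was 1.22 times the lowest, and 88.5% of all tested genes spanned at least as much. RELB (chr19:45001461-45038192, + strand) encodes the partner of p52. It was at 8.58, 6.67 and 13.1 FPKM in control 1, 2 and 3 and at 12.8, 12.6 and 9.98 FPKM in knockdown 1, 2 and 3. RELB was lowest in control 2, not in control 1, and spanned 1.98-fold in CPM. REL, the remaining subunit and no member, was low at 0.96 FPKM on average.

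NFKBIA (chr14:35401079-35404749, − strand) encodes IkB-alpha, the inhibitor that is destroyed and remade most quickly. Its FPKM was 48.2, 87.0 and 168 in control 1, 2 and 3 and 145, 167 and 73.4 in knockdown 1, 2 and 3. Control 3 and knockdown 2 shared the top and control 1 lay 3.49-fold below in CPM. The ratio of NFKBIA to RELA in FPKM was 1.65, 3.14 and 5.10 in control 1, 2 and 3 and 4.42, 5.10 and 2.25 in knockdown 1, 2 and 3. The inhibitor message thus varied against a nearly level message of RELA. Its ratio to NFKB1, which encodes the precursor of p50, varied less, from 4.14 in control 1 to 8.18 in control 3 (1.97-fold, against 3.1-fold for RELA).

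NFKBIE (chr6:44258166-44265788, − strand) encodes IkB-epsilon, which acts on p65 and c-Rel dimers. Its FPKM was 10.8, 5.47 and 10.7 in control 1, 2 and 3 and 13.3, 14.5 and 13.3 in knockdown 1, 2 and 3. NFKBIE was the member whose groups did not overlap, the knockdown libraries being higher, although control 2 lay well apart from the other control libraries. BCL3 (chr19:44747705-44760044, + strand) encodes a nuclear IkB protein that joins p50 and p52 dimers on DNA. It was at 9.5, 13.9 and 15.8 FPKM in control 1, 2 and 3 and at 12.4, 11.4 and 13.6 FPKM in knockdown 1, 2 and 3. The knockdown libraries of BCL3 lay inside the range of the control libraries. The ratio of NFKBIE to NFKBIA in FPKM ran from 0.063 in control 2 to 0.225 in control 1, so the balance of the IkB messages differed 3.57-fold between libraries of the same label.

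TNFAIP3 (chr6:137867214-137883314, + strand) encodes A20, which edits ubiquitin chains on signalling adaptors and so shuts the pathway down. Its FPKM was 10.7, 20.8 and 42.3 in control 1, 2 and 3 and 45.4, 61.3 and 16.3 in knockdown 1, 2 and 3. In CPM the highest library was 5.78-fold above the lowest, a range matched by 6.10% of all tested genes. TNIP1 (chr5:151029945-151093577, − strand) encodes ABIN1, a ubiquitin-binding partner of A20. It was at 51.5, 87.5 and 175 FPKM in control 1, 2 and 3 and at 172, 217 and 69.1 FPKM in knockdown 1, 2 and 3. The ratio of TNFAIP3 to TNIP1 in FPKM was 0.207 to 0.283, so the messages of A20 and its partner kept almost the same proportion while TNIP1 spanned 4.23-fold.

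BIRC3 (chr11:102317484-102339403, + strand) encodes cIAP2, a ubiquitin ligase of TNF receptor complexes that protects against cell death. Its FPKM was 0.83, 5.11 and 6.38 in control 1, 2 and 3 and 6.72, 8.43 and 2.24 in knockdown 1, 2 and 3. BIRC3 had the widest span of the members, 10.2-fold in CPM, with 149 reads in control 1 and 2055 in knockdown 2. Its close relative BIRC2, which encodes cIAP1, was at 11.5 CPM in control 1 and at 15.4 to 28.5 CPM in the others. The ratio of BIRC3 to BIRC2 in FPKM was 0.325, 0.853 and 1.00 in control 1, 2 and 3 and 1.41, 1.46 and 0.651 in knockdown 1, 2 and 3.

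The summed CPM of the 10 members was 661 in control 1, 922 in control 2, 1661 in control 3, 1645 in knockdown 1, 1979 in knockdown 2 and 858 in knockdown 3. Control 1 was the lowest library for 7 members and control 2 for the other 3, whereas knockdown 2 was the highest for 7. Control 3 and knockdown 1 were each among the upper 3 libraries for 9 members. The median span of the members was 2.47-fold in CPM, which is 1.30 on the log2 scale, against 0.64 on that scale over all tested genes. Among genes of like mean level, spans as wide as that of BIRC3 were found for 0.134%, as wide as that of TNFAIP3 for 0.418% and as wide as that of RELA for 72.4%.

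Some features of the libraries moved in part with this order. Of the libraries low in the 6 genes, control 1 and knockdown 3 were also the shallowest, and they had the fewest genes with a read (18861 and 19569, against 20764 to 21819). Control 2 did not share this. All of the 6 genes but BIRC3 lay below their own mean there, on 32035393 reads, against 31295698 reads in control 3, where they were high. CPM is scaled for depth, and the part of depth in the order of the members was not tested. Control 1 stood apart on the first principal component of all tested genes (39.8% of the variance), at −75.8 against −8.06 to 27.6 for the others. Knockdown 3 stood apart on the second (25.8%), at 53.5 against −40.3 to 9.65. Mitochondrial genes held 6.01% to 6.50% of reads in the control libraries and 5.26% to 5.60% in the knockdown libraries, which follows the labels and not the order of the members. In bulk RNA, fewer cells with a message and less of it per cell cannot be told apart.

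**Figure D3:**
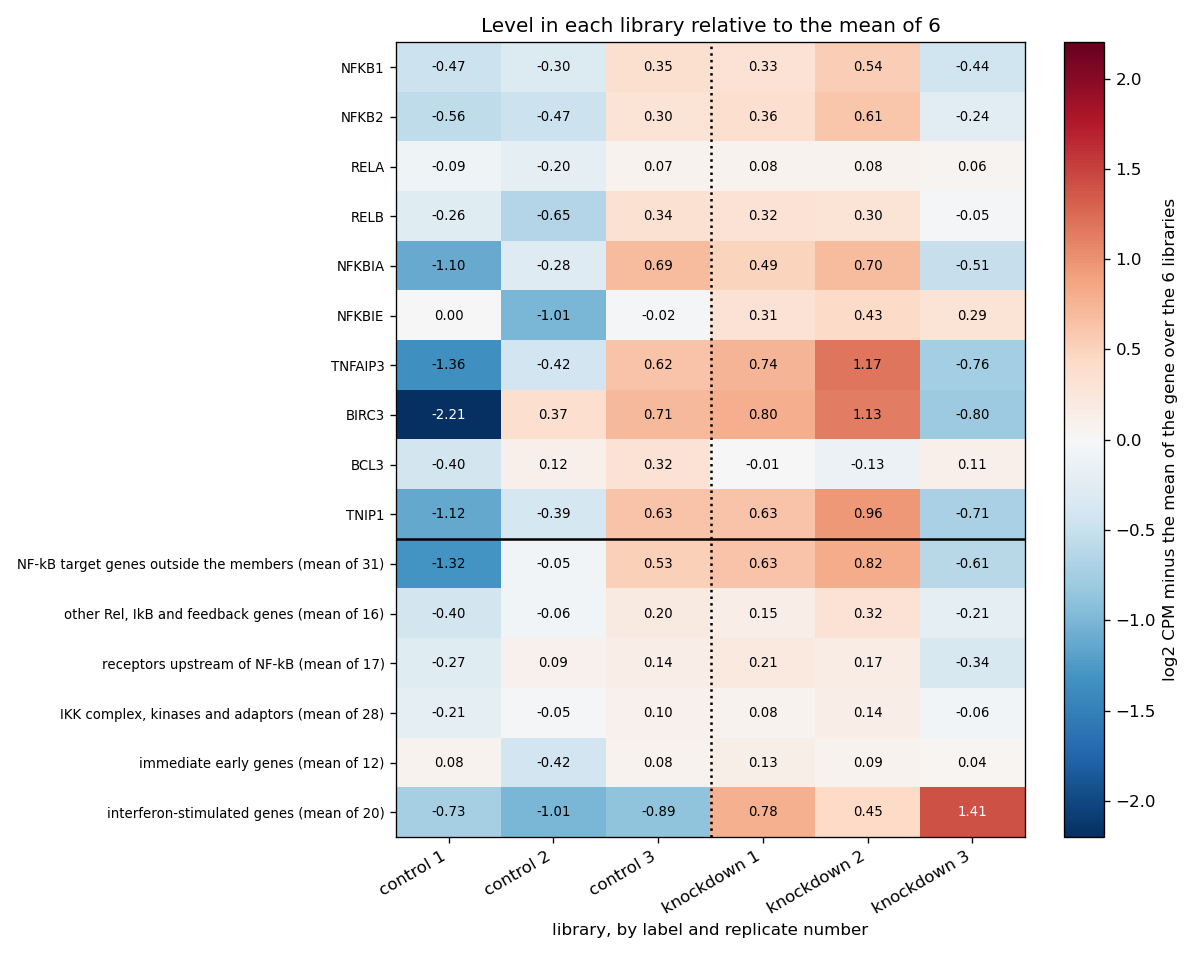
Log2 CPM of each member, and mean over the tested genes of 6 gene lists, as the difference from the mean over the 6 libraries (colour and printed value), with libraries in columns and a dotted line between the labels. The 6 co-varying members and the NF-kB target genes are red in control 3, knockdown 1 and knockdown 2 and blue in control 1 and knockdown 3, whereas the interferon-stimulated genes follow the labels.

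Across the 6 libraries, Pearson r of log2 CPM was computed for the 45 pairs of members, with no p since the members were chosen in part for this measure and since all points share library and depth. The median r was 0.74 and 14 pairs reached 0.9. Of these, 13 lay among the 15 pairs of NFKB1, NFKB2, NFKBIA, TNFAIP3, BIRC3 and TNIP1, for which r was 0.787 to 0.998 and Spearman's rho 0.886 to 1. TNFAIP3 and TNIP1 were the closest pair (r = 0.998, rho = 0.943, n = 6). After each group mean was removed, r among the 15 pairs was 0.771 to 0.999, so these genes also varied alike among libraries of the same label. Without the 2 libraries farthest from the median of the first-listed gene of each pair, r among the 15 pairs was 0.587 to 0.998.

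RELA and RELB formed the remaining pair above 0.9 (r = 0.957, rho = 0.829, n = 6), and r was 0.914 without the 2 farthest libraries, control 1 and control 2. RELA with NFKBIE had r = 0.890, which fell to 0.192 without those libraries, so that value rests on them. With the 6 genes, r was 0.475 to 0.888 for RELB, 0.387 to 0.811 for RELA, 0.031 to 0.606 for NFKBIE and 0.256 to 0.584 for BCL3. These ranges were computed again without the 2 libraries farthest from the median of the first-listed gene of each pair. They became 0.771 to 0.981 for RELB, 0.531 to 0.961 for RELA, 0.115 to 0.922 for NFKBIE and −0.946 to 0.208 for BCL3. The libraries left out differed between pairs, so the values within a range do not all rest on the same libraries. Without control 1 and control 2, RELB was thus closer to NFKBIA (0.981) than to RELA, so how far these 4 genes stand from the other 6 depends on which libraries are included. Against the mean of the other 9 members, r was 0.961 to 0.985 for NFKB1, NFKB2, NFKBIA, TNFAIP3 and TNIP1 and 0.834 for BIRC3. It was 0.776 for RELB, 0.704 for RELA, 0.389 for BCL3 and 0.342 for NFKBIE.

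**Figure D4:**
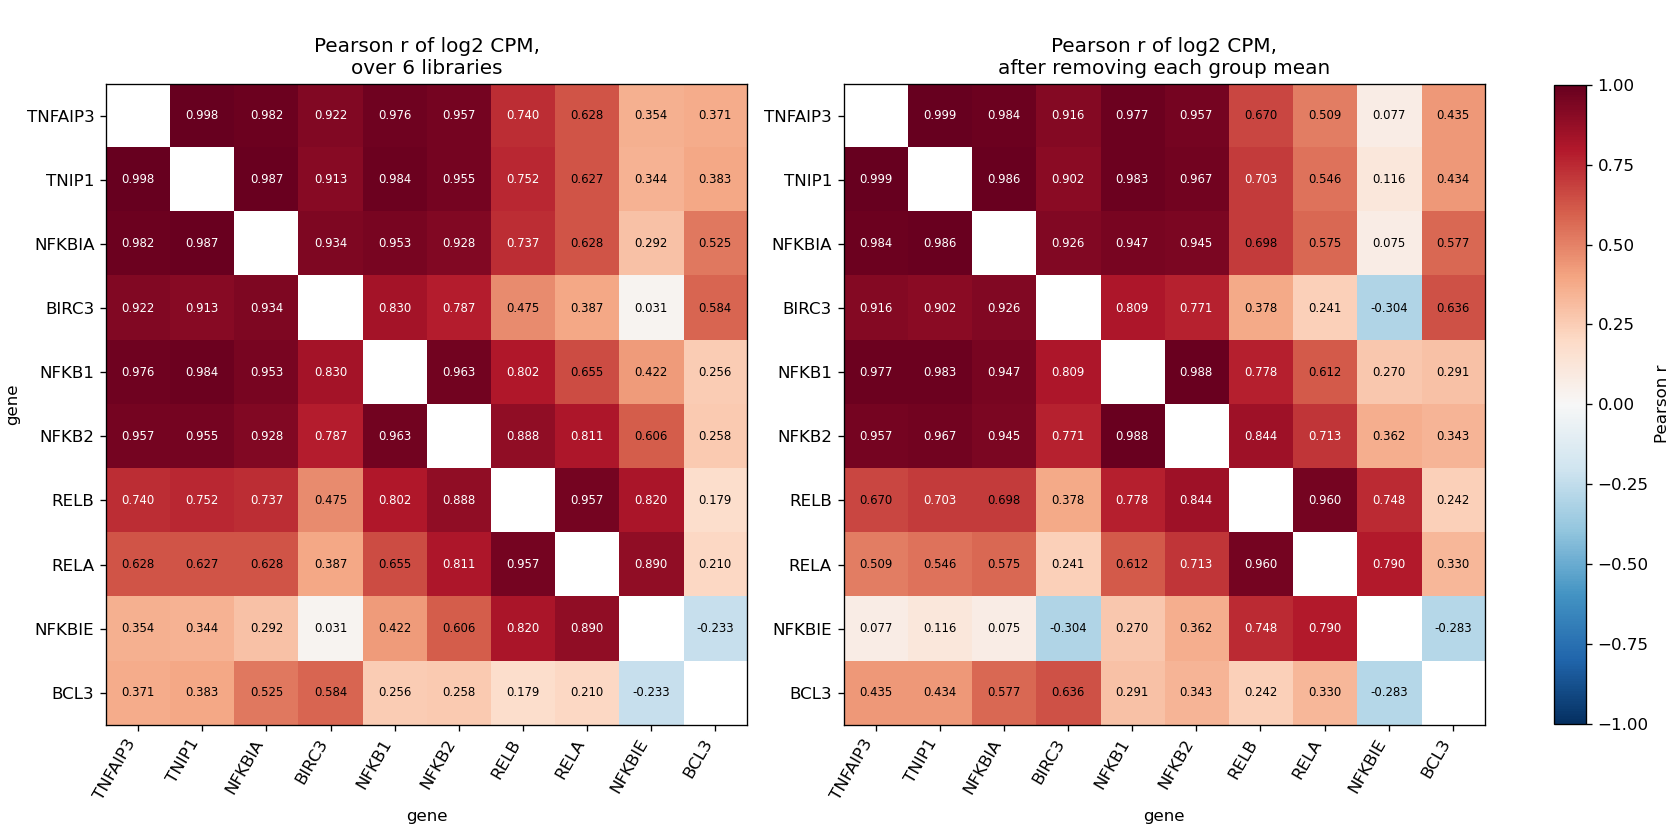
Pearson r of log2 CPM between members over 6 libraries (left) and after the mean of each group was removed (right), with genes on both axes and r as colour and number. TNFAIP3, TNIP1, NFKBIA, BIRC3, NFKB1 and NFKB2 form the dark block with r of at least 0.787 at left and 0.771 at right, and NFKBIE and BCL3 are pale against it.

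The libraries labelled knockdown were then set against those labelled control with edgeR over all 15299 tested genes. At an adjusted p of 0.05, 0 of the 10 members were called, as were 0% of all tested genes. At an unadjusted p under 0.05 there was 1 member, NFKBIE, beside 1251 of all tested genes (8.18%). Groups that did not overlap were found for 1 member, again NFKBIE, beside 15.6% of all tested genes, or 7.94% when only genes higher in the knockdown libraries are counted. With 1 of 10, the members were near the background, and no result about them is read from these counts. Other tools called 31 genes (DESeq2) and 0 genes (limma-voom, with 1322 at an unadjusted p under 0.05) over the whole table, and 0 members in both. Without the low-count filter edgeR called 165 of 26899 genes (0.613%), and 4 members among them, NFKB2, NFKBIE, TNFAIP3 and TNIP1.

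The estimates were above 0 for 9 members, with a median log2 fold change of 0.42 against −0.01 over all tested genes. TNFAIP3 had the highest estimate, 0.76 ± 0.52 (SE), followed by NFKBIE at 0.62 ± 0.23 and TNIP1 at 0.56 ± 0.47. BIRC3 was at 0.52 ± 0.64, NFKB2 at 0.48 ± 0.26, NFKBIA at 0.36 ± 0.42 and RELB at 0.33 ± 0.23. NFKB1 was at 0.29 ± 0.27, RELA at 0.14 ± 0.10 and BCL3 at −0.05 ± 0.18. Single libraries set much of these values. Without control 3 the estimate was 1.41 for TNFAIP3, 1.16 for TNIP1, 0.95 for NFKBIA and 0.99 for BIRC3. Without knockdown 2 it was 0.35 for TNFAIP3 and 0.23 for TNIP1, and without control 1 it was 0.03 for NFKBIA and 0.04 for BIRC3. NFKBIE ran from 0.36 without control 2 to 0.78 without control 1, and BCL3 changed sign between −0.23 without control 1 and 0.11 without control 3.

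**Figure D5:**
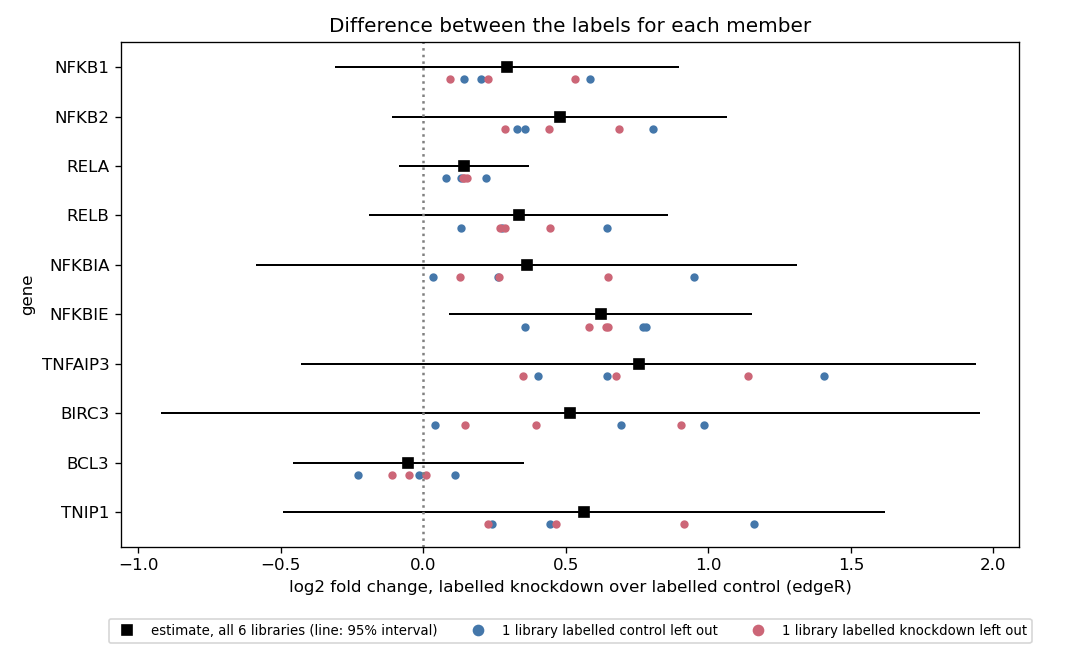
Log2 fold change of each member, labelled knockdown over labelled control, with squares for the edgeR estimate from all 6 libraries, lines for its 95% interval and coloured points for estimates with 1 library left out. The interval of NFKBIE, from 0.10 to 1.149, is the one that lies on one side of 0, and the widest, that of BIRC3, runs from −0.92 to 1.95.

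The other genes of the pathway were read from lists written from general knowledge with earlier results of the series known. Among 16 tested genes of the Rel, IkB and feedback group outside the members, 0 were called, with 8 estimates above 0 and 8 below. NFKBIZ, a nuclear IkB protein, was at 60.6, 213 and 306 CPM in control 1, 2 and 3 and at 269, 327 and 116 CPM in knockdown 1, 2 and 3. ZC3H12A, an RNase that degrades cytokine messages, was at 34.7, 122 and 322 CPM in the control libraries and at 312, 408 and 89.5 CPM in the knockdown libraries. Both had the library order of the feedback members, as had NFKBID, another nuclear IkB protein, at 3.08 to 7.84 CPM (r with the mean of the members 0.985). TRAF1, an adaptor of TNF receptors, was instead lowest in control 2 at 0.918 CPM and 5.49 to 10.1 CPM elsewhere. Their log2 fold changes were 0.29 ± 0.52 for NFKBIZ, 0.76 ± 0.71 for ZC3H12A, 0.39 ± 0.34 for NFKBID and 0.70 ± 0.58 for TRAF1 (SE), and NFKBIZ turned to −0.13 without control 1. Without control 3 they were 1.78 for ZC3H12A, 0.70 for NFKBID and 1.35 for TRAF1, against lowest values of 0.28 and 0.17 without control 1 for ZC3H12A and NFKBID and of 0.20 without control 2 for TRAF1.

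Of 28 tested kinases and adaptors that feed into NF-kB, 0 were called, and their median span was 1.44-fold in CPM, or 0.53 on the log2 scale against 0.64 over all tested genes. IRAK1, a kinase of interleukin-1 receptors, was the most abundant at 401 to 514 CPM, and RBCK1, a subunit of the linear ubiquitin ligase, was at 112 to 133 CPM in the control and 159 to 162 CPM in the knockdown libraries (log2 fold change 0.38 ± 0.10, adjusted p = 0.599 in edgeR). TAB1, which activates the kinase TAK1, was at 26.3 to 36.5 against 40.9 to 42.2 CPM (0.45 ± 0.14, adjusted p = 0.599 in edgeR). In this list r with the mean of the members was at least 0.9 for TICAM1 (0.983), IKBKE (0.976), IRAK2 (0.967) and IKBKB (0.905). The widest span was that of MAP3K8, 3.94-fold, and IKBKB spanned 1.32-fold. IRAK2 was at 27.8, 52.0 and 75.3 CPM in control 1, 2 and 3 and at 77.5, 93.6 and 36.5 CPM in knockdown 1, 2 and 3, and IKBKE spanned 6.56 to 21.1 CPM. Their log2 fold changes were 0.42 ± 0.38 and 0.59 ± 0.32 (SE), and without control 1 they were 0.12 and 0.33.

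Of 17 tested receptors upstream of NF-kB, 0 were called. LTBR, the lymphotoxin receptor, and TNFRSF12A, the receptor for TWEAK, were the most abundant per length, with 306 to 372 and 183 to 223 CPM. TNFRSF1B, the second TNF receptor, was at 0.328 to 2.70 CPM and followed the members (r = 0.944). IL1R1 and TLR4, receptors for interleukin-1 and for bacterial lipopolysaccharide, were at 0.658 to 3.57 and 0.693 to 1.44 CPM, with log2 fold changes of −0.73 ± 0.49 and −0.49 ± 0.41 (SE). Without knockdown 3 IL1R1 was at −0.37, and without control 3 TNFRSF1B went from 0.72 ± 0.75 (SE) to 1.57.

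NF-kB target genes outside the members spanned 7.05-fold in the median, and 0 of 31 tested were called, with 23 estimates above 0 and 8 below. CXCL8, the neutrophil chemokine interleukin-8, was at 188, 1472 and 1849 CPM in control 1, 2 and 3 and at 1461, 1831 and 545 CPM in knockdown 1, 2 and 3. IL6, encoding interleukin-6, was at 134, 689 and 863 CPM in the control libraries and at 953, 1176 and 334 CPM in the knockdown libraries. Like BIRC3, both were high in control 2, where NFKB1 and NFKB2 were low. Their log2 fold changes were 0.13 ± 0.67 and 0.55 ± 0.60 (SE), and without control 1 CXCL8 turned to −0.37 and IL6 was at 0.09, while IL6 was at 1.00 without control 3. The largest estimates were those of weakly expressed genes, namely CSF3 (0 to 3.15 CPM, 2.52 ± 1.01), CCL5 (0.242 to 1.27 CPM, 1.39 ± 0.67) and LTB (1.10 to 10.7 CPM, 1.18 ± 0.64), each with an adjusted p of at least 0.605 in edgeR. Without control 3 CSF3 was at 4.32 and LTB at 2.41, and without knockdown 2 LTB was at 0.62.

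Likeness to the members was read as r over the 6 libraries with their mean centred log2 CPM. Its median was 0.838 over the 31 target genes, of which 12 reached 0.9, and 0.473 over the other feedback genes, 0.350 over the kinases and adaptors and 0.201 over the receptors. Over all 10530 tested genes of at least 5 CPM outside the members, 254 (2.41%) reached 0.9 and 174 lay at −0.9 or below. The lists had no such floor of CPM, and the 12 target genes include the weakly expressed CSF3 (r = 0.948) and LTB (r = 0.901). GADD45B of the target list (r = −0.936) and FAS of the receptor list (r = −0.95) ran against the members. The most alike was PML, which encodes the scaffold of nuclear PML bodies, at 100, 150 and 255 CPM in control 1, 2 and 3 and 273, 297 and 147 CPM in knockdown 1, 2 and 3 (r = 0.998). SCARF1, MFSD2A, ELF3, PTX3, BBC3, CDC42EP2, TSPAN15 and RELT followed with r of 0.997 to 0.989. Their spans differed widely, from 1.45-fold for TSPAN15 to 7.40-fold for PTX3, a secreted pattern recognition protein that is also on the target list.

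The kappaB letters were also counted in these genes, as a description without a test. Only GGGNNTTTCC was counted, the form chosen after its matches in the members were seen. The lists held known genes of the pathway, and the members behind r were chosen in part for how they track each other. GGGNNTTTCC was found in 7 of 23 target genes with a window (30.4%), in 4 of 15 other feedback genes (26.7%), in 2 of 23 kinases and adaptors (8.70%) and in 1 of 14 receptors (7.14%). Outside the members it was found in 16 of 194 genes with r of at least 0.9 (8.25%) and in 216 of 7770 genes below that (2.78%). The 16 are not separate from the lists. They include the list genes CXCL2, CXCL3, CCL20, IL6, NFKBIB, NFKBIZ, TICAM1 and TNFRSF9, which are already counted above. Most genes that followed the members thus had no match in this window, which says nothing about sequences elsewhere.

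Read as list means, other responses did not share the order of the members. The 12 immediate early genes tested had a mean centred log2 CPM of 0.08 in control 1, where the members were at −0.76, and of −0.42 in control 2. Single genes of this list differed from its mean, since JUN and EGR2 were highest in control 3, knockdown 1 and knockdown 2. The 20 interferon-stimulated genes tested were at −0.73, −1.01 and −0.89 in control 1, 2 and 3 and at 0.78, 0.45 and 1.41 in knockdown 1, 2 and 3. They were highest in knockdown 3, where the members were at −0.30.

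Markers were read to check the cells. Among epithelial and renal lineage genes, KRT8 was at 850 to 1343 CPM, VIM at 1826 to 2208 CPM and PAX8 at 343 to 677 CPM, while KRT7, KRT18, KRT19, EPCAM, CDH2 and LHX1 were also above 10 CPM and CDH1 was at most 0.554 CPM. Of the proximal tubule list only GGT1 was well expressed (208 to 280 CPM), and MME was at 4.09 to 8.24 CPM. LRP2, CUBN, AQP1, ANPEP and HNF4A were at 0 in at least 1 library and never above 0.416 CPM, so these markers of the segment were nearly absent. The endothelial and fibroblast list was led by LUM (21.0 to 27.2 CPM) and COL1A1 (4.50 to 10.6 CPM), with PECAM1, CDH5, TEK and DCN at 0 in at least 1 library. Of 16 leukocyte markers 8 were listed, and their summed level was 5.66 to 8.83 CPM in the control and 7.45 to 11.7 CPM in the knockdown libraries, with CD14, CD68 and ITGAX in the lead. LYZ, CD4 and ITGAM were at 0 in at least 1 library. The leukocyte sum was highest in knockdown 2 and lowest in control 1, as were most members, and its part in their order was not tested.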

How the data were processed

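The values used here are 2 tables of the 6 libraries. The authors deposited raw read counts per gene, not normalised, and FPKM values, meaning fragments scaled for gene length and library depth. The submitters' processing notes name bcl2fastq, TopHat2, edgeR and the build GRCh38, while the counter, the gene annotation and the handling of strand were not given in the sources used here. For 2556 genes with FPKM above 20 in every library, FPKM was a rescaling of the counts (largest SD 0.000286 on the log2 scale), so it adds no second measurement. The depth was 24231267 to 34561675 counted reads per library, and replicates of a group differed by a chi-square of 7.34 to 37.9 per degree of freedom, so none was a duplicate.

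The counts were scaled by TMM and entered the quasi-likelihood model of edgeR 4.0.16 (R 4.3.3), after its default low-count filter (minimum count 10, total 15), which left 15299 genes. Libraries were grouped by their titles, all 6 entered 1 model without covariates, and two-sided p-values were adjusted by Benjamini-Hochberg over all tested genes with a threshold of 0.05. With separate cultures not stated, p-values measure the spread between these libraries, which may be technical. CPM is relative to the reads in tested genes times the TMM factor, and correlations used log2 CPM with a prior of 0.5 reads. The steps were tested on simulated data. Alternatives were other scalings, filters and tools (DESeq2 1.42.0, limma 3.58.1), FPKM on a log2 scale, the replicate number as a block and each library left out.

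The members and all lists were chosen with earlier results of these data known. The named genes are the members, in each pathway list the 3 largest absolute log2 fold changes and the 2 highest mean FPKM, the 10 genes of at least 5 CPM most like the members, ANXA2, and markers at 0 or above 10 CPM in a library. Any other gene was named after its values were seen. Gene windows are from RefSeq on GRCh38.p14 and were matched by symbol. Several genes of the lists were not analysed here, and 3 genes that the rule names are not reported here.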

Additional observations from a re-analysis of the deposited data

How the results depend on the processing

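There were 3 libraries per label, and the CPM of the members spanned 1.22-fold (RELA) to 10.2-fold (BIRC3) over the 6 libraries, on 149 to 23560 reads per member and library. The median over the members ran from 0.19 (without knockdown 2) to 0.79 (without control 3) when 1 library was left out. Genes past adjusted p 0.05 numbered 165 of 26899 (0.613%) without the low-count filter, 31 with DESeq2 and 0 to 4 with 1 library left out (4 without knockdown 2). Without the low-count filter 4 members passed (NFKB2, NFKBIE, TNFAIP3 and TNIP1), with 1 other feedback gene and 11 target genes. There edgeR estimated infinite prior degrees of freedom, against 5.23 with the filter. Members whose groups did not overlap numbered 2 with upper-quartile factors (beside 15.1% of all tested genes) and 1 to 5 with 1 library left out. Beside them stood 31.7% of all tested genes without control 1 (2 members), 27% without control 3 (4 members) and 29.5% without knockdown 3 (5 members). In the remaining settings, with 1 member each, the share was 21.7% without control 2, 19.9% without knockdown 1 and 25.4% without knockdown 2. The count of member pairs with r of at least 0.9, an alternative chosen after seeing the data, was 14 to 22 with 1 library left out (22 without control 2). Of the pathway genes, NFKBIZ ran from −0.13 (without control 1, and −0.003 without knockdown 2) to 0.79, CXCL8 from −0.37 (without control 1, and −0.22 without knockdown 2) to 0.62, and TNFRSF12A from −0.12 to 0.027 (without knockdown 1). The cause was not tested for any of these, beyond the fewer libraries in the settings with 1 left out.

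Same-numbered libraries did not deviate together (r of deviations from the group means −0.06, 0.10 and −0.19 for numbers 1, 2 and 3 over all tested genes, and −0.89, 0.49 and −0.95 over the members alone), so the numbers were not taken as pairs. With the replicate number as a block, 0 genes and 0 members passed the adjusted p in edgeR (1076 genes at an unadjusted p under 0.05), the median over the members was 0.50 and ANXA2 was at −0.05.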
